A study of Homo sapiens with 9 samples.

Results

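Aminoacyl-tRNA synthetases are the enzymes that join each amino acid to its matching tRNA, the step that sets the meaning of a codon before the ribosome reads it. Human cells encode separate nuclear genes for the cytosolic enzymes and for those imported into mitochondria, and by convention the names of mitochondrial enzymes end in 2. GARS1 (glycine) and KARS1 (lysine) encode enzymes for both places. Several cytosolic enzymes are held in a multi-synthetase complex by the scaffold proteins AIMP1, AIMP2 and EEF1E1. Translation in protrusions is known to be fed by locally placed mRNA, and mitochondria carry their own translation machinery into them.

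The transcripts of 35 synthetase genes were followed, 19 of them cytosolic or of dual location and 16 mitochondrial. They were taken by gene symbol from a list of synthetases and not by any measured value. All 35 were found among the 62709 genes with values, the glutamine enzyme QARS under the symbol QARS1, and all 35 passed edgeR's filter on low counts. RNA sequencing had been done on hTERT-MSC, mesenchymal stem cells of adipose origin that were immortalised with telomerase, in 3 groups of 3 libraries: pseudopodia, cell body and whole cell. All groups had received PDGF-BB at 50 ng/mL for 1 h, so no untreated cells are in these comparisons. The pseudopodia had grown through pores of 3 µm and were scraped from below the membrane, the cell bodies were scraped from above it, and the collection of the whole-cell samples is not described. The line is 1 immortalised line, and the labels do not say that the 3 libraries of a group came from separate cultures, so the p-values below reflect only how much these particular samples vary, and part of that may be technical.

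Library totals were 59148161 to 77166197 counts in pseudopodia, against 55469030 to 71330868 in cell body and 57233895 to 83894938 in whole cell. RAB13, whose mRNA is known from protrusions, was higher in pseudopodia than in cell body by 4.46 ± 0.15 (log2 fold change ± SE, adjusted p = 1.21e-08). The 6 mesenchymal markers summed to 1947 to 3004 TPM (transcript share scaled for gene length and library total) in pseudopodia, against 5251 to 5527 in cell body and 4632 to 4864 in whole cell. Of the markers of other cells, the haematopoietic list summed to at most 61.7 TPM, the endothelial list to at most 84.9 and the adipocyte list to at most 1.38, while the epithelial list, carried by KRT8 and KRT18, reached 295 in cell body. Nuclear-retained RNAs summed to 41.4 to 47.7 TPM in pseudopodia, 81.6 to 110.9 TPM in cell body and 205.4 to 221.4 TPM in whole cell. The part of these differences in the results below was not tested. The spread between replicates was unequal, with a biological coefficient of variation of 31.9% in pseudopodia, against 17.6% in cell body and 5.09% in whole cell. Since 1 spread per gene served all groups, p-values of the pseudopodia comparisons may be underestimated and those of cell body against whole cell overestimated. Levels in these bulk libraries are shares of the RNA collected from a part of the cell or from whole cells. A lower share can mean less of an mRNA or more of other RNA, and these cannot be told apart.

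Pseudopodia replicate 3 stood apart from the other two among the synthetases of low GC content. All 11 members with a GC content below 45% had fewer normalised counts there than in replicate 2 and than in replicate 1, by means of 0.64 and 0.57 on the log2 scale. Across the 35 members the difference between replicates 2 and 3 followed GC content with Pearson r = -0.80 and Spearman rho = -0.89, a description across genes that share these libraries. For replicate 1 minus replicate 2 of pseudopodia r was 0.41 and rho 0.51, with a mean of -0.07 among the 11 members of low GC content. A weaker link with GC content was thus present between these replicates too. Between replicates of cell body or of whole cell, r lay between -0.23 and 0.15. NARS1, TARS1, RARS2, EPRS1 and FARSB are among these 11, and their pseudopodia values are given replicate by replicate below, and the fits that leave replicate 3 out or add an offset for GC content and length are given beside them where these change a call.

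**Figure D1:**
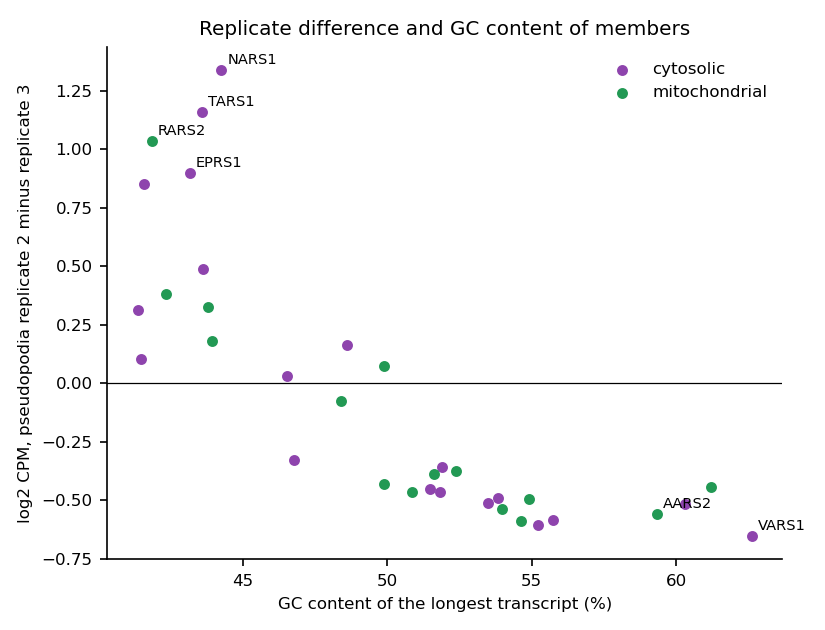
Difference in log2 normalised count (CPM) between pseudopodia replicates 2 and 3 (y axis) against the GC content in % of each gene's longest transcript (x axis), 1 point per synthetase gene and VARS2 not drawn. The 11 points below 45% GC all lie above 0, and most points above 50% lie below it.

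Per transcript length, the serine enzyme SARS1, the tryptophan enzyme WARS1 and QARS1 had the highest levels in every group, in that order. SARS1 had 302 ± 34.9 TPM in pseudopodia, 353 ± 17.9 TPM in cell body and 268 ± 8.22 TPM in whole cell (SD, n = 3 each here and for every mean below). WARS1 had 174 ± 21.2, 284 ± 22.8 and 214 ± 2.92 TPM, and QARS1 had 151 ± 25.1, 181 ± 13.3 and 169 ± 2.55 TPM, in the same order of groups. In pseudopodia the ranges of mean ± SD of WARS1 and QARS1 overlapped. Within each pseudopodia library WARS1 was the higher, with 170, 155 and 197 TPM, against 150, 126 and 176 TPM for QARS1. The mitochondrial isoleucine enzyme IARS2 led the mitochondrial members at 82.5 ± 13.6 TPM in pseudopodia, 117 ± 9.23 TPM in cell body and 131 ± 4.81 TPM in whole cell. The mitochondrial valine enzyme VARS2 was the lowest member in each group, followed by the mitochondrial serine enzyme SARS2 at 1.24 ± 0.191, 1.60 ± 0.392 and 2.25 ± 0.369 TPM. The glutamate and proline enzyme EPRS1 ranked 15 in pseudopodia, against 10 in cell body and 4 in whole cell, whereas the arginine enzyme RARS1 ranked 4, 7 and 10.

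Summed over the family, the cytosolic members made up 1391 ± 25.8 TPM in pseudopodia, 1852 ± 44.9 TPM in cell body and 1657 ± 32.1 TPM in whole cell. The mitochondrial members made up 216.5 ± 8.11, 266.3 ± 12.3 and 290.3 ± 4.64 TPM. TPM are shares of the library, and ribosomal protein mRNAs took 6.85% of counts in pseudopodia, against 4.71% in cell body and 3.16% in whole cell, and mitochondrially encoded mRNAs 6.02%, 2.84% and 4.67%. With both groups of genes left out of the total, the cytosolic sums were 2001 ± 29.2 TPM in pseudopodia, 2279 ± 39.9 TPM in cell body and 2210 ± 15.0 TPM in whole cell, and the mitochondrial sums 311.7 ± 19.4, 327.7 ± 12.1 and 387.2 ± 2.27 TPM. Single genes are compared below in CPM (read counts normalised to the library total with TMM factors), which compare a gene with itself and not with other genes.

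**Figure D2:**
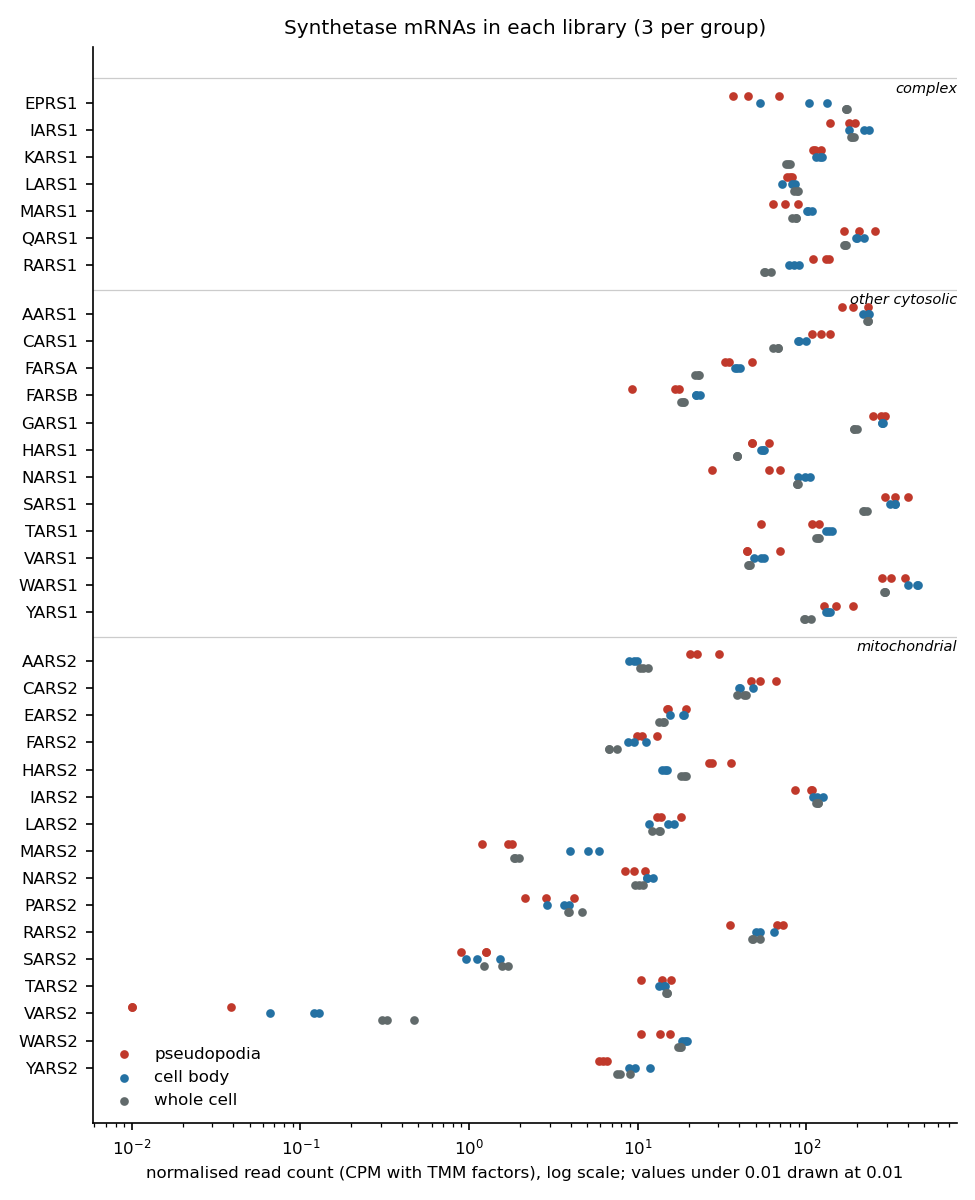
Normalised read count (CPM, log axis) of each of the 35 synthetase genes in every library, with 3 points per group for pseudopodia, cell body and whole cell and the genes ordered by role. Cytosolic genes lie mostly above 30 CPM and mitochondrial genes mostly below it, and the pseudopodia points of EPRS1, NARS1, TARS1 and RARS2 are widely spread.

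Pseudopodia were compared with cell body to ask which of these mRNAs are unevenly placed along the cell. The family did not move as a block: 4 of the 35 members were higher in pseudopodia (11.4%, against 18.6% of all 19426 genes tested) and 9 were lower (25.7%, against 19.9% of all genes), and 22 did not pass the test. The members that rose were AARS2, HARS2, RARS1 and CARS1. Those that fell were EPRS1, FARSB, MARS1, NARS1 and WARS1 of the cytosolic set and MARS2, VARS2, WARS2 and YARS2 of the mitochondrial set. The median log2 fold change of the members was -0.08, beside -0.05 for all genes tested, with 2 higher and 5 lower of 19 cytosolic members and 2 higher and 4 lower of 16 mitochondrial members. The calls came from edgeR's quasi-likelihood test with Benjamini-Hochberg adjustment over all genes and a threshold of 0.05. The calls of AARS2, HARS2, MARS2 and YARS2 held under every alternative that gave a value. The count of lower members was 3 without cell body replicate 3, 4 without cell body replicate 2, 5 without replicate 1 of either group, and 11 without pseudopodia replicate 3. Of all genes, 22.1% were lower without pseudopodia replicate 3 and 15.5% to 16.8% in the other fits named. On log2(TPM + 1), where the median of all genes was -0.17, 2 members (AARS2 and HARS2) were higher and 17 lower. In that fit 11.9% of all genes were higher and 30.4% lower.

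**Figure D3:**
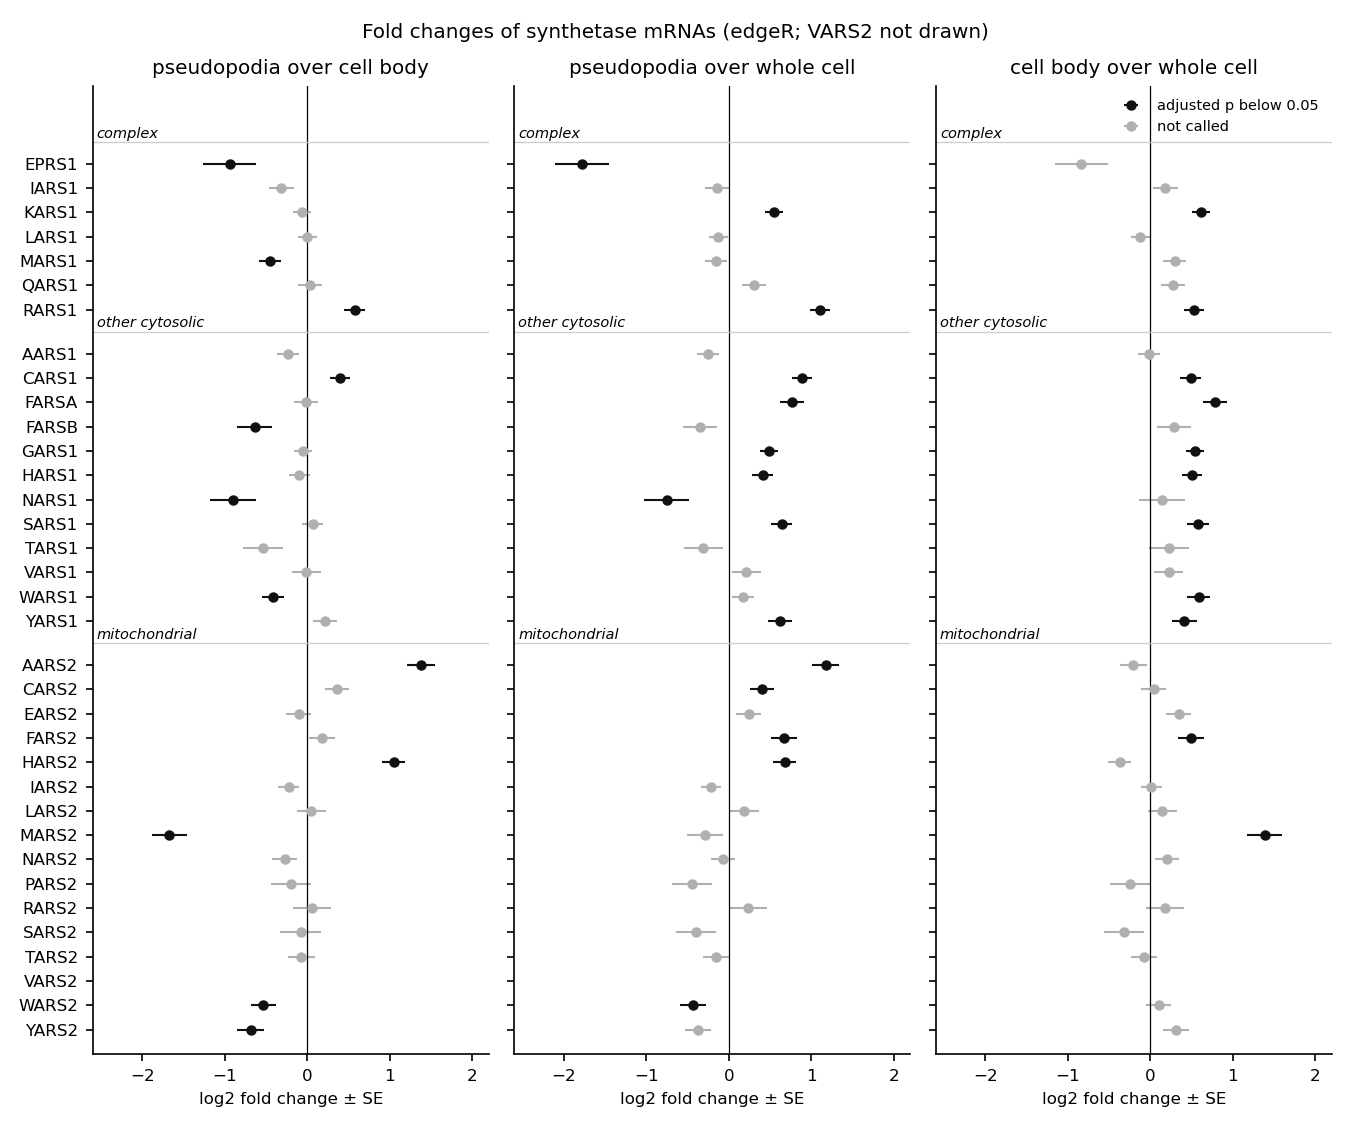
Log2 fold change with its standard error (x axis) of 34 synthetase genes (y axis, by role) for pseudopodia over cell body, pseudopodia over whole cell and cell body over whole cell, with black points for an adjusted p below 0.05; VARS2 is left out because of its few counts. AARS2 and HARS2 lie furthest right and MARS2 furthest left in the first panel, and most cytosolic points lie right of 0 in the third.

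AARS2, the mitochondrial alanine enzyme, had 22.5, 20.5 and 30.2 CPM in the 3 pseudopodia libraries, against 8.88, 9.44 and 9.84 CPM in cell body and 10.7, 11.5 and 10.2 CPM in whole cell. Every pseudopodia library lay above every other library. The log2 fold change was 1.38 ± 0.16 against cell body (adjusted p = 6.25e-05) and 1.17 ± 0.16 against whole cell (0.000105), and cell body and whole cell differed by -0.21 ± 0.16 (0.339). Its cytosolic counterpart AARS1 had 188, 162 and 230 CPM in pseudopodia, against 216, 232 and 235 CPM in cell body, a difference of -0.23 ± 0.14 that did not pass the test (0.201). The log2 ratio of AARS1 to AARS2 in TPM was thus 2.02 ± 0.067 in pseudopodia, against 3.63 ± 0.021 in cell body and 3.45 ± 0.10 in whole cell. AARS2 (ENSG00000124608) lies on chromosome 6 at 44299654 to 44313326 of GRCh38.

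HARS2, the mitochondrial histidine enzyme, had 27.5, 26.5 and 35.8 CPM in pseudopodia, against 14.0, 14.5 and 15.0 CPM in cell body and 18.8, 19.4 and 18.03 CPM in whole cell. The pseudopodia libraries were again the 3 highest, with a log2 fold change of 1.05 ± 0.14 against cell body (adjusted p = 0.000177) and 0.67 ± 0.14 against whole cell (0.00177). The cytosolic enzyme HARS1 had 47.6, 47.6 and 59.8 CPM in pseudopodia, against 53.5, 56.3 and 55.7 CPM in cell body and 38.9, 38.8 and 38.8 CPM in whole cell. HARS1 in pseudopodia overlapped with cell body (-0.09 ± 0.12, adjusted p = 0.584) and exceeded whole cell (0.41 ± 0.12, 0.014). The log2 ratio of HARS1 to HARS2 in TPM was -1.14 ± 0.052 in pseudopodia, against 0.00 ± 0.033 in cell body and -0.88 ± 0.052 in whole cell, so the cell body libraries stood apart from both other groups. On log2(TPM + 1) the call of HARS2 against whole cell was lost (0.19, adjusted p = 0.154).

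HARS1 (ENSG00000170445, chromosome 5, 140673904 to 140691862, minus strand) and HARS2 (ENSG00000112855, chromosome 5, 140691426 to 140699318, plus strand) are neighbours that start head to head. They are shown here because the starts lie close together while the mRNAs differed in distribution. RefSeq places the starts at 140691370 for HARS1 and 140691455 for HARS2 on GRCh38.p14. The 84 bases between them, chr5:140691371-140691454 on the plus strand, are printed with capitals for matches to CCGGAAG on either strand, the core of the sites that ETS factors such as GABP bind:
HARS1-HARS2: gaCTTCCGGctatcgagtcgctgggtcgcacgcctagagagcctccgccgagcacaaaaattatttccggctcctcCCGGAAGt
The stretch holds 2 matches, 1 near each start. Of the RefSeq promoter windows (250 bases before to 50 after a start), 10.3% of 35116 hold this motif on either strand. Of the 30 members with a window, 16 hold it in at least 1 window. Some members have more than 1 window, so the share of windows and the count of members are not in the same unit. A match describes the letters and is not a measured site. In GENCODE the annotated HARS1 and HARS2 overlap, and WDR55 and ZMAT2 overlap them as well; the strand setting of the counting is not given, so reads from the overlaps may have been assigned to either gene.

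**Figure D4:**
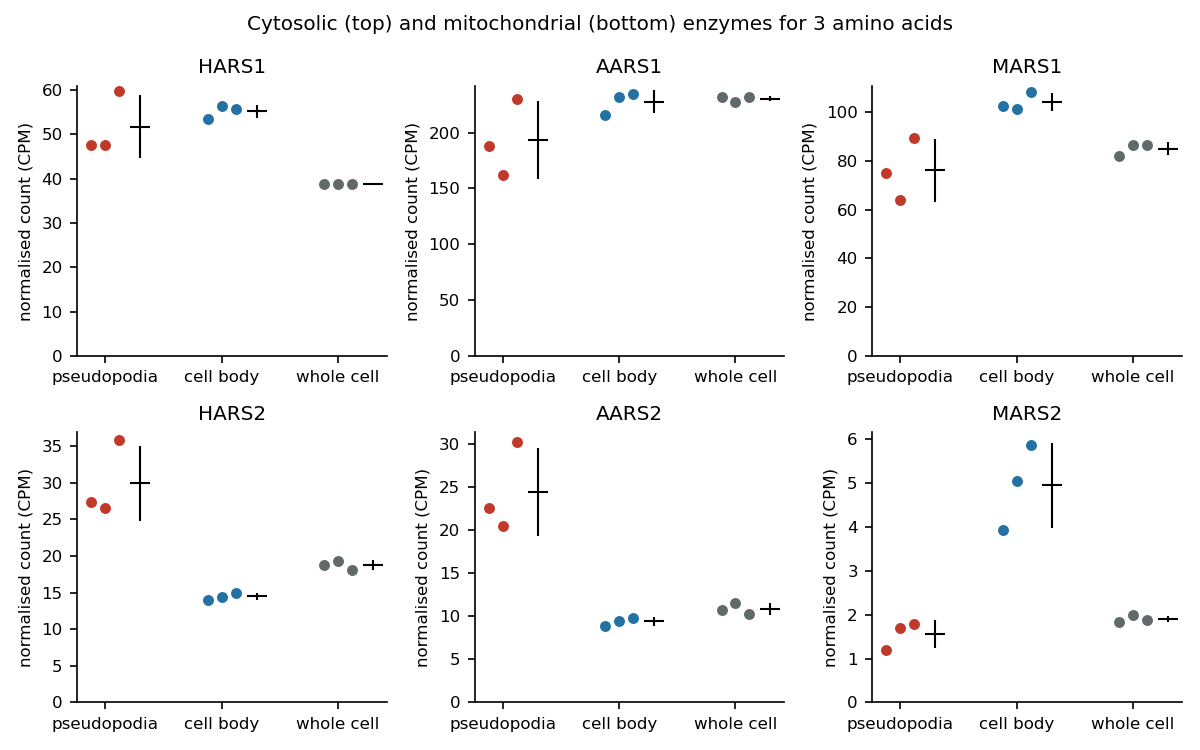
Normalised read count (CPM, from 0) of the cytosolic (top) and mitochondrial (bottom) enzymes for histidine, alanine and methionine in each library of pseudopodia, cell body and whole cell, with mean and SD beside the points. HARS2 and AARS2 are highest in pseudopodia, and MARS1 and MARS2 are both highest in cell body, MARS2 by the wider margin.

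Among the enzymes of the multi-synthetase complex, RARS1 (arginine) rose. It had 131, 136 and 109 CPM in pseudopodia, against 89.8, 78.6 and 84.1 CPM in cell body and 56.0, 61.9 and 57.1 CPM in whole cell, without overlap between groups. The log2 fold change was 0.58 ± 0.12 against cell body (adjusted p = 0.00365) and 1.10 ± 0.13 against whole cell (2.38e-05). With an offset for GC content and length the values became 1.11 and 2.00, and on log2(TPM + 1) they were 0.28 (adjusted p = 0.0869) and 0.63 (0.0013). RARS1 (ENSG00000113643) lies on chromosome 5 at 168486445 to 168519299.

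EPRS1, which charges both glutamate and proline tRNAs and is also known for a role in translational control of inflammatory mRNAs, had 45.1, 68.9 and 36.9 CPM in pseudopodia, against 103, 133 and 53.4 CPM in cell body and 174, 172 and 172 CPM in whole cell. Pseudopodia replicate 2 exceeded cell body replicate 3, and all whole-cell libraries lay above both. EPRS1 was lower in pseudopodia than in whole cell by a log2 fold change of -1.78 ± 0.33 (adjusted p = 0.00133), which held under every alternative. Against cell body it was -0.94 ± 0.32 (0.0457), a call that was lost when any 1 of 7 libraries was left out (pseudopodia replicate 1 or 3, cell body replicate 1 or 2, or any whole-cell library), with a highest adjusted p of 0.174, and with the GC and length offset (-0.66, 0.0636).

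The remaining 5 enzymes of the complex differed less. MARS1 (methionine) had 75.1, 63.8 and 89.5 CPM in pseudopodia, against 103, 101 and 108 CPM in cell body, and fell by 0.45 on the log2 scale (SE 0.13, adjusted p = 0.0203). That call was lost without replicate 1 of pseudopodia or replicate 1 or 3 of cell body (adjusted p up to 0.0843), and MARS1 overlaps DDIT3 on the other strand. IARS1 (isoleucine) had 180, 194 and 138 CPM in pseudopodia, against 180, 221 and 237 CPM in cell body, and its difference of -0.32 ± 0.15 did not pass the test (adjusted p = 0.124). LARS1 (leucine), KARS1 and QARS1 showed differences of -0.00, -0.07 and 0.03 against cell body, each with an SE of at most 0.15 and an adjusted p of at least 0.665. LARS1 had 80.3, 82.4 and 76.6 CPM in pseudopodia, against 71.4, 82.0 and 86.2 CPM in cell body, and QARS1 had 206, 168 and 255 CPM in pseudopodia, against 199, 198 and 219 CPM in cell body, with overlap in both. In all, 1 of the 7 complex enzymes was higher (14.3%, against 18.6% of all genes) and 2 were lower (28.6%, against 19.9%) in pseudopodia than in cell body, with values from -0.94 to 0.58.

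The scaffold proteins AIMP1, AIMP2 and EEF1E1 did not pass the test in either pseudopodia comparison (0 of 3). AIMP1 had 23.6 ± 13.5 CPM in pseudopodia, against 24.9 ± 7.36 in cell body and 41.6 ± 1.08 in whole cell. AIMP2 had 9.96 ± 1.27, 12.7 ± 0.262 and 8.59 ± 0.458 CPM and was higher in cell body than in whole cell (log2 fold change 0.57 ± 0.14, adjusted p = 0.00992; 0.0547 without whole-cell replicate 1). EEF1E1 had 1.77 ± 0.889, 2.90 ± 0.678 and 1.77 ± 0.148 CPM.

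Of the 12 cytosolic enzymes outside the complex, CARS1 (cysteine) was higher in pseudopodia than in cell body, and NARS1 (asparagine), FARSB (the beta subunit of the phenylalanine enzyme) and WARS1 were lower. CARS1 had 123, 107 and 138 CPM in pseudopodia, against 100, 90.4 and 88.8 CPM in cell body and 63.4, 67.8 and 67.7 CPM in whole cell. Its pseudopodia libraries were the 3 highest, and the log2 fold change was 0.40 ± 0.12 against cell body (adjusted p = 0.0261) and 0.89 ± 0.13 against whole cell (0.000116). The first call was lost under 9 of 21 alternatives, among them the GC and length offset (0.15, adjusted p = 0.356) and the fits without replicate 1 of pseudopodia, replicate 2 or 3 of cell body or replicate 3 of whole cell, and the second held in all 21.

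NARS1 had 60.0, 69.5 and 27.4 CPM in pseudopodia, against 105, 88.6 and 98.3 CPM in cell body and 88.5, 87.6 and 88.6 CPM in whole cell. All 3 pseudopodia libraries were below the other 6, and replicate 3 was far below the rest. The log2 fold change was -0.89 ± 0.28 against cell body (adjusted p = 0.0286) and -0.75 ± 0.28 against whole cell (0.0381). The first call was lost without any 1 cell body library (adjusted p up to 0.0887), and the second without pseudopodia replicate 1 or any 1 library of the other groups (up to 0.0869); without replicate 3 of pseudopodia both calls held, at -0.59 and -0.44, and with the GC and length offset the first held (-0.62, 0.0294) and the second was lost (-0.31, 0.195). TARS1 (threonine), with 109, 120 and 53.5 CPM in pseudopodia, against 142, 130 and 136 CPM in cell body, had a similar spread and did not pass (-0.53 ± 0.24, adjusted p = 0.107). TARS1 passed without pseudopodia replicate 3 (-0.25, 0.0404) or replicate 2 (-0.75, 0.0300), and did not pass with the offset (-0.32, 0.141).

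FARSA and FARSB encode the alpha and beta subunits of the same cytosolic phenylalanine enzyme. FARSB had 17.5, 16.7 and 9.24 CPM in pseudopodia, against 23.2, 22.2 and 22.3 CPM in cell body, and FARSA had 34.9, 33.0 and 47.3 CPM in pseudopodia, against 37.8, 38.6 and 40.3 CPM in cell body. FARSB fell by 0.64 on the log2 scale (SE 0.21, adjusted p = 0.0301), while FARSA differed by -0.02 ± 0.15 (0.937). The test of the difference between the subunits was not run, and the FARSB call did not hold with the GC and length offset (-0.17, adjusted p = 0.243) or without any 1 cell body library or whole-cell replicate 1 or 2.

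WARS1 had 316, 280 and 386 CPM in pseudopodia, against 398, 453 and 457 CPM in cell body and 288, 294 and 292 CPM in whole cell. The cell body libraries were the 3 highest. WARS1 fell in pseudopodia against cell body by 0.41 on the log2 scale (SE 0.14, adjusted p = 0.0309) and was higher in cell body than in whole cell (0.58 ± 0.14, 0.00641), and pseudopodia against whole cell gave 0.17 ± 0.13 (0.295). The call against cell body was lost under 9 of 21 alternatives, among them the fits without pseudopodia replicate 1 or 2, cell body replicate 2 or 3, or any whole-cell library (adjusted p up to 0.116). GARS1 and KARS1, the genes with products in cytosol and mitochondria, had nearly equal CPM in both parts of the cell. GARS1 had 292, 277 and 248 CPM in pseudopodia, against 284, 279 and 282 CPM in cell body, and KARS1 had 122, 112 and 110 CPM in pseudopodia, against 121, 114 and 124 CPM in cell body. Whole cell had 191, 199 and 191 CPM of GARS1 and 77.9, 80.4 and 76.1 CPM of KARS1, below every library of the other groups. In TPM the means of pseudopodia and cell body were 53.3 and 67.2 for GARS1 and 96.0 and 122 for KARS1. Both genes were called lower in pseudopodia than in cell body on log2(TPM + 1) and log2(TPM + 0.1), where the medians of all genes were -0.17 and -0.31.

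The mitochondrial methionine enzyme MARS2 had the lowest log2 fold change of pseudopodia against cell body after VARS2. It had 1.18, 1.70 and 1.79 CPM in pseudopodia, against 3.94, 5.04 and 5.87 CPM in cell body and 1.84, 1.98 and 1.87 CPM in whole cell, from 82 to 125, 230 to 412 and 116 to 169 counts. The pseudopodia libraries lay just below whole cell without passing the test (-0.29 ± 0.22, adjusted p = 0.269), and the cell body libraries stood above both, by a log2 fold change of -1.67 ± 0.22 for pseudopodia against cell body (0.000115) and 1.38 ± 0.21 for cell body against whole cell (0.000643). MARS2 (ENSG00000247626) lies on chromosome 2 at 197705369 to 197708387, and its exons fill all 3019 bases of the gene.

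YARS2, the mitochondrial tyrosine enzyme, had 6.61, 6.22 and 5.90 CPM in pseudopodia, against 11.8, 8.83 and 9.60 CPM in cell body and 7.53, 8.97 and 7.80 CPM in whole cell. It fell by 0.69 on the log2 scale against cell body (SE 0.16, adjusted p = 0.00547), and against whole cell it gave -0.37 ± 0.16 (0.060). YARS2 overlaps DNM1L (22524 counts over all libraries) and WARS2 overlaps WARS2-AS1 (9238), each on the other strand. Other members also overlap expressed neighbours, among them KARS1 with TERF2IP, WARS1 with WDR25 and YARS1 with S100PBP. As the strand setting is not given, reads of such overlaps may have been assigned to either gene. WARS2 (tryptophan) had 15.4, 13.6 and 10.4 CPM in pseudopodia, against 18.3, 19.1 and 19.6 CPM in cell body and 17.9, 17.9 and 17.4 CPM in whole cell, with all pseudopodia libraries below the others. It fell by 0.53 against cell body (SE 0.15, adjusted p = 0.0181) and by 0.43 against whole cell (SE 0.15, 0.0298). With the GC and length offset WARS2 gave -0.09 (adjusted p = 0.548) against cell body and 0.30 (0.0378) against whole cell, so the second direction turned; the first call was also lost without cell body replicate 2 or 3, and the second without any 1 cell body or whole-cell library.

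VARS2, the mitochondrial valine enzyme, was hardly detected in any group. It had 0, 0 and 2 counts in pseudopodia, against 7, 4 and 9 counts in cell body and 30, 21 and 29 counts in whole cell. The ratio of pseudopodia to cell body was 0.097 (95% exact interval 0.0110 to 0.399) and that of pseudopodia to whole cell 0.0286 (0.00340 to 0.107), intervals that cover counting error only. Its fitted log2 fold changes of -3.12, -4.90 and -1.77 (pseudopodia against cell body, pseudopodia against whole cell, cell body against whole cell; adjusted p 0.0193, 0.000278 and 0.0245) rest on these counts. The call against cell body was lost without pseudopodia replicate 1 or 2 or cell body replicate 3 (adjusted p up to 0.0641), and that of cell body against whole cell without any 1 library of those groups (up to 0.104). Without pseudopodia replicate 3, the library with its 2 counts, the fitted values were -5.90 against cell body and -7.66 against whole cell. VARS2 overlaps GTF2H4 on the same strand, and GTF2H4 had 28 counts over all 9 libraries. Whether reads of VARS2 were lost in mapping or assignment was not tested, so its few counts need not mean low expression.

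The other 10 mitochondrial members did not pass the test between pseudopodia and cell body. CARS2 (cysteine) had 53.0, 46.7 and 65.8 CPM in pseudopodia, against 48.0, 40.1 and 40.6 CPM in cell body, with overlapping libraries (log2 fold change 0.36 ± 0.15, adjusted p = 0.0765). RARS2 (arginine), with 66.8, 72.3 and 35.2 CPM in pseudopodia, against 64.2, 52.9 and 50.5 CPM in cell body, had both its highest and its lowest library in pseudopodia (0.06 ± 0.23, adjusted p = 0.865). RARS2 passed as higher in pseudopodia without pseudopodia replicate 3 (0.32 against cell body, 0.0447, and 0.50 against whole cell, 0.00266) and with the GC and length offset (0.47, 0.00581, and 0.98, 2.41e-05). IARS2, NARS2 and PARS2 gave -0.22, -0.27 and -0.20, and EARS2, FARS2, LARS2, SARS2 and TARS2 lay between -0.10 and 0.18. SARS2 and PARS2 had 58 to 89 and 170 to 258 counts per library in cell body, which limits what could be detected for them. SARS2 also overlaps MRPS12 on the other strand.

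Pseudopodia were also compared with whole cell, which shares the pseudopodia libraries with the comparison above. Here 12 of 35 members were higher (34.3%, against 27.9% of all genes) and 4 were lower (11.4%, against 33.1%), with a median log2 fold change of 0.17, beside -0.12 for all genes tested. The cytosolic members gave 8 higher and 2 lower of 19 (median 0.21), and the mitochondrial members 4 higher and 2 lower of 16 (median -0.11). The highest were AARS2, RARS1 and CARS1 and the lowest VARS2, EPRS1 and NARS1, with the values above. FARSA rose by a log2 fold change of 0.77 ± 0.15 (adjusted p = 0.000993), FARS2, the mitochondrial phenylalanine enzyme, by 0.67 ± 0.16 (0.00393), SARS1 by 0.64 ± 0.13 (0.00137) and YARS1, the cytosolic tyrosine enzyme, by 0.62 ± 0.15 (0.00346). SARS1 had 337, 294 and 402 CPM in pseudopodia, against 219, 228 and 215 CPM in whole cell, YARS1 150, 127 and 190 CPM, against 97.4, 107 and 98.3 CPM, and FARS2 10.6, 9.96 and 12.9 CPM, against 6.76, 7.52 and 6.73 CPM. For these genes every pseudopodia library lay above every whole-cell library. KARS1, GARS1, HARS1 and CARS2 rose by 0.55, 0.49, 0.41 and 0.40, in all cases less than 1.5-fold. On log2(TPM + 1), where the median of all genes was itself -0.34, 3 members (AARS2, RARS1 and CARS1) were higher and 18 lower. In that fit 16.6% of all genes were higher and 49.9% lower. HARS1 (-0.05) and CARS2 (-0.07) turned below 0, and AARS2, RARS1 and CARS1 gave 0.64, 0.63 and 0.41. The count of lower members was 2 without any 1 cell body or whole-cell library and 7 without pseudopodia replicate 3. Of all genes, 27.4% to 32.0% were lower in the former fits and 33.5% without pseudopodia replicate 3. MARS1 passed as lower without that replicate (-0.28, adjusted p = 0.0242), and CARS2 lost its call without pseudopodia replicate 1 or 3 or any 1 whole-cell library.

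Cell body was compared with whole cell as the part of the cell left above the membrane. Of the 35 members 11 were higher in cell body (31.4%, against 18.1% of all genes) and 1, VARS2, was lower (2.86%, against 20.5%), with a median log2 fold change of 0.22, beside -0.06 for all genes. Of the 19 cytosolic members 9 were higher and 0 lower in edgeR, and EPRS1 (-0.84 ± 0.32, adjusted p = 0.0671) had the lowest value among them; EPRS1 passed without cell body replicate 2 (-1.13, 0.0302) or pseudopodia replicate 2 (-0.83, 0.0360). MARS2 and FARSA had the highest values, FARSA with 37.8, 38.6 and 40.3 CPM in cell body, against 21.8, 23.2 and 22.9 CPM in whole cell (0.78 ± 0.15, 0.00216). KARS1 (0.62 ± 0.11, adjusted p = 0.00143), SARS1 (0.57 ± 0.13, 0.00572), GARS1 (0.54 ± 0.11, 0.00315), RARS1 (0.53 ± 0.12, 0.00689) and HARS1 (0.51 ± 0.12, 0.00879) were also higher, as was WARS1 with the value above. HARS2 went the other way without passing (-0.37 ± 0.14, 0.0596), and was called lower in cell body under 10 of 21 alternatives, among them the fits without pseudopodia replicate 2 (-0.36, 0.0424) or replicate 3 (-0.36, 0.00468). The 8 calls of FARSA, GARS1, HARS1, KARS1, RARS1, SARS1, WARS1 and MARS2 held under every alternative that gave a value, whereas CARS1 was lost without whole-cell replicate 1 (0.0541), FARS2 without cell body replicate 1 or 3 or any 1 whole-cell library, and YARS1 without pseudopodia replicate 1 or any 1 cell body or whole-cell library. The count of higher members was 17 without pseudopodia replicate 3, where 24.5% of all genes were higher. With upper-quartile factors 9 were higher and 3 lower, against 14.0% and 23.4% of all genes.

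The 3 comparisons share libraries, so their calls are not independent. The share of all genes with each pattern below was not counted, so the patterns describe the members only. Read across the comparisons, 2 members, CARS1 and RARS1, were ordered pseudopodia, cell body, whole cell from high to low with all 3 differences called. A further 7 (FARSA, GARS1, HARS1, KARS1, SARS1, YARS1 and FARS2) exceeded whole cell in pseudopodia and in cell body alike and were not called between those parts. AARS2 and HARS2 were called higher in pseudopodia than in both other groups, and EPRS1, NARS1 and WARS2 lower than in both. For 14 members, AARS1, IARS1, LARS1, QARS1, TARS1, VARS1, EARS2, IARS2, LARS2, NARS2, PARS2, RARS2, SARS2 and TARS2, no comparison passed with all libraries. Without pseudopodia replicate 3, AARS1 passed as lower in pseudopodia than in cell body (-0.38, adjusted p = 0.00783) and than in whole cell (-0.39, 0.00436), VARS1 as lower than in cell body (-0.26, 0.0384) and PARS2 as lower than in whole cell (-0.72, 0.00703).

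Where an amino acid has an enzyme in each compartment, the log2 TPM ratio of the cytosolic to the mitochondrial gene was set side by side. Besides alanine and histidine, the ratio for methionine was 4.40 ± 0.378 in pseudopodia, against 3.199 ± 0.259 in cell body and 4.27 ± 0.043 in whole cell, that for arginine 3.54 ± 0.403, 2.96 ± 0.127 and 2.60 ± 0.009, and that for tyrosine 2.43 ± 0.345, 1.56 ± 0.211 and 1.45 ± 0.059. The ratio was lower in pseudopodia for asparagine (4.34 ± 0.587, against 5.06 ± 0.138 in cell body and 5.12 ± 0.069 in whole cell) and for FARSB over FARS2 (-0.15 ± 0.705, against 0.72 ± 0.145 and 0.92 ± 0.093), without overlap between pseudopodia and either group. The ratios for isoleucine (-1.68 ± 0.086, -1.59 ± 0.121 and -1.75 ± 0.019) and leucine (1.70 ± 0.303, 1.75 ± 0.154 and 2.00 ± 0.119) overlapped between pseudopodia and cell body. Isoleucine and, outside cell body, histidine were thus the pairs with a higher TPM of the mitochondrial than of the cytosolic gene in every library of the group. Mean read counts in pseudopodia went the other way, with 170 CPM for IARS1, against 100 for IARS2, and 51.7 for HARS1, against 29.9 for HARS2. The TPM order therefore rests on the gene lengths used for scaling, and which mRNA had more copies was not tested.

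Uncharged tRNA is the signal that activates the kinase EIF2AK4 (GCN2), which phosphorylates EIF2S1 (eIF2alpha) and so raises translation of ATF4, and many cytosolic synthetase genes are known targets of ATF4. Of 9 genes of this arm 4 were higher (44.4%, against 18.6% of all genes) and 1 was lower (11.1%, against 19.9%) in pseudopodia than in cell body. PPP1R15A (GADD34), which directs the phosphatase that reverses the EIF2S1 mark, had 1229 ± 215 CPM in pseudopodia, 197.9 ± 14.7 CPM in cell body and 203 ± 0.319 CPM in whole cell, a log2 fold change of 2.63 ± 0.15 against cell body (adjusted p = 3.62e-07). EIF2AK4 had 185 ± 8.53, 103 ± 17.6 and 112 ± 1.04 CPM (0.85 ± 0.14, 0.000532). EIF2S1 itself had 35.3 ± 14.2, 70.6 ± 1.58 and 43.8 ± 0.305 CPM (-0.998 ± 0.24, 0.00803), and PPP1R15B, the constitutive relative of PPP1R15A, did not pass (-0.51 ± 0.19, 0.0525). GCN1 and ATF4, the other genes called, are named after their values were seen; GCN1, which activates EIF2AK4, gave 0.76 (adjusted p = 0.00497). ATF4 had 740 ± 103, 556 ± 72.0 and 384 ± 17.2 CPM; its call against cell body (0.41 ± 0.14, 0.038) was lost under 11 alternatives, among them the fits without pseudopodia replicate 1 or 3, cell body replicate 2 or 3 or any 1 whole-cell library, and that against whole cell (0.95 ± 0.14, 0.000172) held.

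The targets of ATF4 did not move one way. Of 24 targets outside the synthetases 5 rose (20.8%, against 18.6% of all genes) and 8 fell (33.3%, against 19.9%) in pseudopodia relative to cell body, with a median of -0.08. Against whole cell, 9 were higher (37.5%, against 27.9%) and 8 lower (33.3%, against 33.1%). The transcription factor ATF5 had 117 ± 22.6 CPM in pseudopodia, against 54.8 ± 7.44 in cell body and 31.2 ± 1.51 in whole cell, and the stress regulator NUPR1 47.2 ± 7.20, 22.2 ± 1.54 and 17.5 ± 1.09 CPM, each with a log2 fold change of 1.09 against cell body (adjusted p = 0.000258 and 0.000129). The amino acid transporter SLC38A2 had 97.9 ± 58.5, 425 ± 54.985 and 793 ± 31.2 CPM (-2.12 ± 0.45 against cell body, 0.0053), and the cystine transporter SLC7A11 7.85 ± 3.34, 28.7 ± 2.10 and 29.2 ± 1.15 CPM (-1.87 ± 0.25, 0.000193). Of the 13 synthetases commonly given as ATF4 targets, 1 (CARS1) was higher (7.69%, against 18.6% of all genes) and 4 (EPRS1, MARS1, NARS1 and WARS1) were lower (30.8%, against 19.9%) in pseudopodia than in cell body. In cell body 5 were higher (38.5%, against 18.1%) and 0 lower (against 20.5%) than in whole cell.

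ATF4 and its C/EBP partners are known to bind elements that read TGATGNAA. This motif was searched on both strands in the RefSeq windows of GRCh38.p14, which held 30 of the 35 members. It was found in at least 1 window of 8 members, 7 cytosolic and 1 mitochondrial, and in 3.62% of all 35116 windows. The former counts members and the latter windows, and CARS1, GARS1 and TARS1 each also have a window without a match. The matches are shown because they group by a known element the members whose calls can then be compared. Each line gives 30 bases in the direction of the gene, with the match in capitals:
AARS1, chr16:70289675-70289704, minus strand: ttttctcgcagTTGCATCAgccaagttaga
CARS1, chr11:3057407-3057436, minus strand: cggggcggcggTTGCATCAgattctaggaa
GARS1, chr7:30594834-30594863, plus strand: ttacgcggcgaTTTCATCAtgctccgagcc
IARS1, chr9:92293692-92293721, minus strand: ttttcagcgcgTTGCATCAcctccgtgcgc
MARS1, chr12:57488053-57488082, plus strand: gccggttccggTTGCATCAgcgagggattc
NARS1, chr18:57621804-57621833, minus strand: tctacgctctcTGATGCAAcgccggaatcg
TARS1, chr5:33440956-33440985, plus strand: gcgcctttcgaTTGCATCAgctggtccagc
YARS2, chr12:32756076-32756105, minus strand: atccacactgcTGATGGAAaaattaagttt
In CARS1, GARS1, IARS1, MARS1 and TARS1 the match lies within 33 bases of the RefSeq start, in NARS1 it spans 14 to 21 bases past the start, and in AARS1 and YARS2 further upstream, from -187 and -197. The 8 genes did not share a call: between pseudopodia and cell body CARS1 was higher, MARS1, NARS1 and YARS2 were lower and AARS1, GARS1, IARS1 and TARS1 did not pass. The match describes letters in this window and no binding was measured.

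Other genes that act on tRNA were counted from lists by role. Of 6 genes for the mitochondrial amidotransferase, the formylase MTFMT and the selenocysteine route, 0 were higher and 2 were lower in pseudopodia than in cell body in edgeR. The lower share was 33.3%, against 19.9% of all genes, and 18.6% of all genes were higher. GATC, a subunit of the amidotransferase that makes glutaminyl-tRNA in mitochondria, gave -0.56 ± 0.15 (adjusted p = 0.0128, and 0.0552 without cell body replicate 2). SEPSECS, which completes selenocysteinyl-tRNA, gave -0.56 (0.0219, lost without cell body replicate 2 or 3). PSTK, the kinase of seryl-tRNA for selenocysteine, had the lowest value (-0.65 ± 0.30) and did not pass (0.118), and MTFMT (-0.03) and QRSL1 (-0.15) had the highest. Of 5 tested genes listed under proofreading and recycling, 0 were higher (against 18.6% of all genes) and 2 were lower (40.0%, against 19.9%). AARSD1, which clears mischarged alanine tRNA, had 0.0596 ± 0.0183 CPM in pseudopodia, against 0.482 ± 0.209 in cell body and 0.838 ± 0.0656 in whole cell (-2.93 ± 0.44 against cell body, 0.000327). Its pseudopodia level lies near the floor, so this fold change rests on few counts. The peptidyl-tRNA hydrolase PTRH2 had 8.23 ± 2.36, 18.1 ± 0.624 and 6.17 ± 0.116 CPM (-1.13 ± 0.20, 0.000926). DTD1 and TARS3 had the highest values, 0.29 and 0.24, without passing.

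Of 22 genes for tRNA processing, repair and export, 3 rose (13.6%, against 18.6% of all genes) and 4 fell (18.2%, against 19.9%) in pseudopodia relative to cell body, shares near those of all genes. RPP25, a protein of RNase P, had 5.19 ± 1.19 CPM in pseudopodia, against 3.33 ± 0.393 in cell body and 2.03 ± 0.0812 in whole cell, and TSEN54, a subunit of the tRNA splicing endonuclease, 9.93 ± 0.461, 6.86 ± 1.79 and 7.89 ± 0.150 CPM. Their log2 fold changes against cell body were 0.64 ± 0.19 (adjusted p = 0.0216) and 0.54 ± 0.18 (0.0369), and both calls were lost without cell body replicate 2 or 3, that of TSEN54 also without pseudopodia replicate 1 or any 1 whole-cell library. TRMT10C, a subunit of mitochondrial RNase P, had 4.10 ± 3.07, 11.8 ± 4.28 and 8.21 ± 0.261 CPM (-1.52 ± 0.47, 0.0288; lost without pseudopodia replicate 1 or 3 or cell body replicate 1). RPP21, another RNase P protein, had 0 counts in all pseudopodia libraries, against 65 counts in cell body and 84 in whole cell. Set against a floor of 3 counts over the pseudopodia group, the level was 22.3-fold higher in cell body and 24.5-fold higher in whole cell. These figures take the counts of the other groups as exact and cover no spread between libraries. Whether reads of RPP21 were lost in mapping or assignment was not tested.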

How the data were processed

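RNA of 9 libraries was measured in 3 groups of 3. Raw read counts, whole numbers for 62709 genes, were deposited by the authors in 1 table that the labels tie to featureCounts, and TPM values per library were deposited by the authors for the 37196 genes with a count. Per the submitters' processing notes the build was GRCh38 and the one named tool DESeq2. Not given in the sources used here are the aligner, annotation release and strand setting. A blank line in the count table held no gene and was left out.

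The members and all gene lists were chosen with earlier results of these data known, so their counts are descriptions. All 9 libraries entered 1 fit in edgeR 4.0.16 (R 4.3.3; limma 3.58.1) with TMM factors, the expression filter by group and robust quasi-likelihood tests, which left 19426 genes; Benjamini-Hochberg adjusted p below 0.05 was called. CPM are counts scaled by library total and TMM factor, and SE are taken from the test statistic. Low counts were set against a floor of 3. The fits were tested on simulated data. Values per library are given for the 5 highest and 5 lowest members between pseudopodia and cell body, the 3 highest and 3 lowest of each other comparison, complex enzymes, GARS1, KARS1, HARS1 and HARS2, and were added for other members that were called; genes outside the family are the 2 highest and 2 lowest of each list. Positions, GC content and overlaps came from GENCODE release 29 (GC for 92.8% of genes), and promoters from RefSeq. Alternatives were RLE and upper-quartile factors, totals without mitochondrially encoded and ribosomal protein genes, DESeq2 1.42.0, no filter or at least 5 CPM in 3 libraries, sample-weighted limma-voom, limma on TPM as log2(TPM + 1) or log2(TPM + 0.1), a fit of just the 6 libraries in question, a GC and length offset, a replicate block and leaving out each library.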

Additional observations from a re-analysis of the deposited data

How the results depend on the processing

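Over 2192 refits of single members, 1918 kept their side of the threshold and, where called, their direction; 126 lost the call, 136 gained one and 12 turned. All that turned compared pseudopodia with whole cell. With the GC and length offset FARSB gave 0.47, IARS1 0.28, LARS1 0.60, IARS2 0.33, NARS2 0.46 and WARS2 0.30 on the log2 scale, each passing the test. On log2(TPM + 1) and log2(TPM + 0.1) HARS1 gave -0.054 and -0.058, WARS1 -0.30 and -0.30, and CARS2 -0.067 and -0.071. The cause was not tested. These fits also moved the median of all genes, to -0.34 and -0.56 on the TPM scales and 0.13 with the offset.

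Between pseudopodia and cell body, 2 members were higher in each TPM fit. With limma-voom 16 were lower, in the TPM fits 17 and 18, and with only the 6 libraries compared 4. Leaving out 1 library gave 3 to 5 higher and 3 to 11 lower. Of all genes, 11.9% and 11.8% were higher in the TPM fits, and 30.4% and 31.35% lower. With limma-voom 30.6% of all genes were lower, and with the 6 libraries 16.5%. Leaving out 1 library gave 14.3% to 19.9% of all genes higher and 15.5% to 22.6% lower. Against whole cell, 3 members were higher in each TPM fit and 19 with the offset. Without mitochondrially encoded and ribosomal protein genes, without the filter and with 6 libraries 2 were lower. The filter of 5 CPM gave 7 lower, limma-voom 9 and each TPM fit 18. Leaving out 1 library gave 11 to 13 higher and 2 to 7 lower. Of all genes, 16.6% and 16.5% were higher in the TPM fits and 37.3% with the offset. The settings with 2 lower members, in the same order, had 31.8%, 17.5% and 31.8% of all genes lower. The filter of 5 CPM had 34.9% lower, limma-voom 42.3% and the TPM fits 49.9% and 49.3%. Leaving out 1 library gave 23.6% to 28.2% of all genes higher and 27.4% to 34.6% lower. For cell body against whole cell, 17 members were higher with limma-voom and with 6 libraries and 20 with the offset. Lower were 3 with upper-quartile factors, limma-voom, each TPM fit, 6 libraries and the offset. Without mitochondrially encoded and ribosomal protein genes, with DESeq2 and with the replicate block 2 were lower. Leaving out 1 library gave 8 to 17 higher and 0 to 3 lower. Of all genes, 29.5% were higher with limma-voom, 28.0% with 6 libraries and 29.6% with the offset. In the settings named for lower members, 19.1% to 32.1% of all genes were lower. Leaving out 1 library gave 11.8% to 24.5% of all genes higher and 13.6% to 26.6% lower. Summed TPM without mitochondrially encoded and ribosomal protein genes were 2001 in pseudopodia, against 2279 in cell body and 2210 in whole cell for cytosolic members. For mitochondrial members they were 311.7, 327.7 and 387.2. Leaving out 1 of 3 libraries cannot move a mean by as much as the SD, so such refits do not bear on how stable the summed TPM are.

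Deviations of same-numbered libraries from their group means correlated between -0.08 and 0.09 across genes. These values do not show pairing by number, and with 3 libraries per group they cannot exclude it. With the number as a replicate block, CARS1 (pseudopodia against cell body, adjusted p = 0.0542), CARS2 (pseudopodia against whole cell, 0.0596), YARS1 and FARS2 (cell body against whole cell, 0.0645 and 0.0631) lost their calls and EPRS1 gained one (cell body against whole cell, 0.0125). MARS2, PARS2, SARS2 and VARS2 were not tested under the filter of 5 CPM, nor VARS2 in the pseudopodia and cell body libraries alone. Few assigned counts limit VARS2, and SARS2, MARS2 and PARS2 had at most 412 counts in any library.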
